A study of Arabidopsis thaliana with 24 samples.

Results

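The genes described here are the 9 PYR/PYL abscisic acid receptor genes PYR1, PYL1, PYL2 and PYL4 to PYL9 of Arabidopsis thaliana, out of 38088 genes in the deposited expression table. They were picked by their locus identifiers, AT4G17870 (PYR1), AT5G46790 (PYL1), AT2G26040 (PYL2), AT2G38310 (PYL4), AT5G05440 (PYL5), AT2G40330 (PYL6), AT4G01026 (PYL7), AT5G53160 (PYL8) and AT1G01360 (PYL9), and all 9 were found. The receptor family has 14 members, and the other 5, PYL3 and PYL10 to PYL13, were listed below 1 FPKM in all 24 libraries. The study sequenced mRNA bound to polysomes, and the total mRNA of the same kind of lysate, to ask how salt-imposed hypertonic stress changes translation. Seedlings were 5 days old, grown on agar medium at 22 °C with 16 h of light and 8 h of dark, and had rested 30 min in liquid medium before the salt. The 8 groups, with 3 libraries each, were dcp5-1 at T15 and at T0 and the wild type Col-0 at T15 and at T0, each as polysomal RNA and as total RNA. T15 stands for 15 min in medium with 150 mM NaCl and T0 for 0 min. For polysomal RNA, lysates were spun through sucrose gradients (10% to 50%) and the fractions holding polysomes were combined. The mutant is represented by the dcp5-1 line alone, and the labels do not say whether libraries of a group came from separate batches of seedlings, so the p-values measure the spread between these libraries, which may be technical.

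Abscisic acid, ABA, is the hormone with which plants answer drought and salt. The PYR/PYL proteins are its soluble receptors: once ABA sits in their pocket they bind and block clade A protein phosphatases 2C, which otherwise keep the SnRK2 kinases inactive, and the freed kinases phosphorylate transcription factors of the ABF family. PYR1, PYL1 and PYL2 form dimers in the absence of hormone, whereas the other subfamilies, PYL4 to PYL6 and PYL7 to PYL9, are largely monomeric and can inhibit phosphatases at lower hormone levels. DCP5, the gene mutated in dcp5-1, encodes an RNA-binding protein of processing bodies that acts in mRNA decapping and translational repression.

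In the TAIR10.1 annotation the subfamilies also differ in gene structure. PYR1, PYL1, PYL2, PYL4, PYL5 and PYL6 have a single exon, while PYL7, PYL8 and PYL9 have 3 exons. Transcript lengths ran from 1179 nt in PYL9 to 1748 nt in PYL8, with coding parts of 564 nt and 567 nt. The start regions are shown for 3 genes that moved differently below: PYL5, which fell strongly in total RNA of Col-0, PYL9, which rose there, and PYL7, which stood out on polysomes. Each is the 300 bases before the annotated gene start, read from the TAIR10.1 genome (RefSeq) 5′ to 3′ along the gene's own strand, which is the plus strand for all 3. Capitals mark the ABA-responsive element core ACGTG on either strand, which ABF factors are known to bind. The positions are chr5:1608688-1608987 for PYL5, chr1:141570-141869 for PYL9 and chr4:446678-446977 for PYL7.
PYL5: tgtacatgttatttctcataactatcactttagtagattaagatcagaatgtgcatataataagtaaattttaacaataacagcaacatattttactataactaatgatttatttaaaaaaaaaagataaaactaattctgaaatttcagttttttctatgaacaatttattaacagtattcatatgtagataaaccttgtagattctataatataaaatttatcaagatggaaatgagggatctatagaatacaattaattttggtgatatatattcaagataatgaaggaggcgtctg
PYL9: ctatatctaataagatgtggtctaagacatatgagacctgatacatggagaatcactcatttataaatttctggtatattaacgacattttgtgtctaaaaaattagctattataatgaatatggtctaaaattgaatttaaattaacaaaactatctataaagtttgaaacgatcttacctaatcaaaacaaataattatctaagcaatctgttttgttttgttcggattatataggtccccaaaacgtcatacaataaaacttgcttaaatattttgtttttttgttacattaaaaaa
PYL7: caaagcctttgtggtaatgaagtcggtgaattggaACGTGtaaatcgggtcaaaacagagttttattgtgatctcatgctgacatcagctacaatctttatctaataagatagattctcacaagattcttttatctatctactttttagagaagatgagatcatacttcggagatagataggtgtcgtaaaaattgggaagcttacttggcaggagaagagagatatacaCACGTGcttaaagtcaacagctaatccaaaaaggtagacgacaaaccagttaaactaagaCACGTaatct

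The core ACGTG, searched on both strands, was present in 1 of the 8 start regions searched, that of PYL7, against 25.6% of 27443 regions of the same length across the genome. With positions counted back from the gene start, PYL7 held 4 copies, at -265, -70, -69 and -10, of which the overlapping pair at -70 and -69 is 1 copy of the palindromic G-box CACGTG, present in 7.1% of regions. The DRE core CCGAC was found in PYL7 alone among the 8, against 13.9% of regions, and the W-box core TTGAC in PYL4, PYL6, PYL7 and PYL8, against 50.4% of regions. These matches describe letters in a window and were not tied to any factor here.

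Each library had an implied depth of 14524568 to 18984855 fragments, read from the steps between low FPKM values (fragments scaled to transcript length and library size), and 19026 to 19579 genes at or above 1 FPKM. At that depth the receptor genes rested on about 79 fragments (PYL6) to 9054 fragments (PYL4) in a library. DCP5 averaged 13.0 to 20.6 FPKM in the 4 dcp5-1 groups and 50.7 to 91.6 FPKM in the 4 Col-0 groups, with no overlap between libraries. The leaf marker LHCB1.1, a light-harvesting protein, was abundant at 3197 to 11628 FPKM. Of the root markers, PYK10, a root glucosidase, was high at 1513 to 3916 FPKM. EXPA7 and EXPA18 were low, at 1.70 to 4.40 FPKM and 0.770 to 4.74 FPKM. The pollen markers VGD1 and AGP6 reached at most 0.0331 and 0.700 FPKM. Of the seed markers, the storage gene CRU3 reached at most 0.0505 FPKM, while OLEO1, an oil body protein, lay at 0 to 0.970 FPKM in dcp5-1 and 0.942 to 5.18 FPKM in Col-0; its part in the genotype differences below was not tested. RBCS1A, a leaf marker for the small Rubisco subunit, was listed at 0 in all libraries. The second Col-0 T0 library of total RNA stood apart: all 9 receptor genes had their highest value of that group there, with a median ratio of 1.25 to the other libraries of the group. Some of the results that rest on it are therefore also given without it. Among those given only with it are the NaCl changes of association of PYR1, PYL1, PYL5 and PYL8 in Col-0, and the summed FPKM. Changes with NaCl in total RNA followed transcript length across 19445 genes, with a rank correlation of 0.484 in dcp5-1 and 0.589 in Col-0, and results are also given after a trend on length and GC content was taken out of each library. The column suffix that marks the gradient samples is not defined in the table and was read as polysomal; were it the other way round, the sign of polysome association would reverse.

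The family spanned a wide range of levels, given here as FPKM, which are scaled to transcript length. No length and GC trend was taken out of these levels, so comparisons between genes are approximate. PYL4 was highest, between 293 and 436 FPKM over the 24 libraries, with a median of 385 FPKM. PYL5 followed with a median of 146 FPKM, a lowest value of 93.1 and a highest of 390 FPKM (389.8 FPKM in Col-0 T0 total RNA), and PYR1 with a median of 95.3 FPKM, from 70.4 to 299 FPKM. These ranges overlap for PYL5 and PYR1. PYL8 (47.8 to 98.7 FPKM, median 58.9) and PYL1 (36.4 to 97.3 FPKM, median 52.4) formed an overlapping middle pair. PYL9 (9.37 to 19.7 FPKM), PYL7 (5.69 to 11.1 FPKM), PYL2 (5.49 to 14.4 FPKM) and PYL6 (3.93 to 11.6 FPKM) were low, with ranges that overlapped their neighbours. The remaining members of the family had maxima of 0.590 FPKM (PYL3), 0.511 (PYL10), 0.489 (PYL11), 0.754 (PYL12) and 0.570 FPKM (PYL13), and were above 0 in 18, 10, 14, 17 and 2 of the 24 libraries; they did not pass the filter and were not tested.

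**Figure D1:**
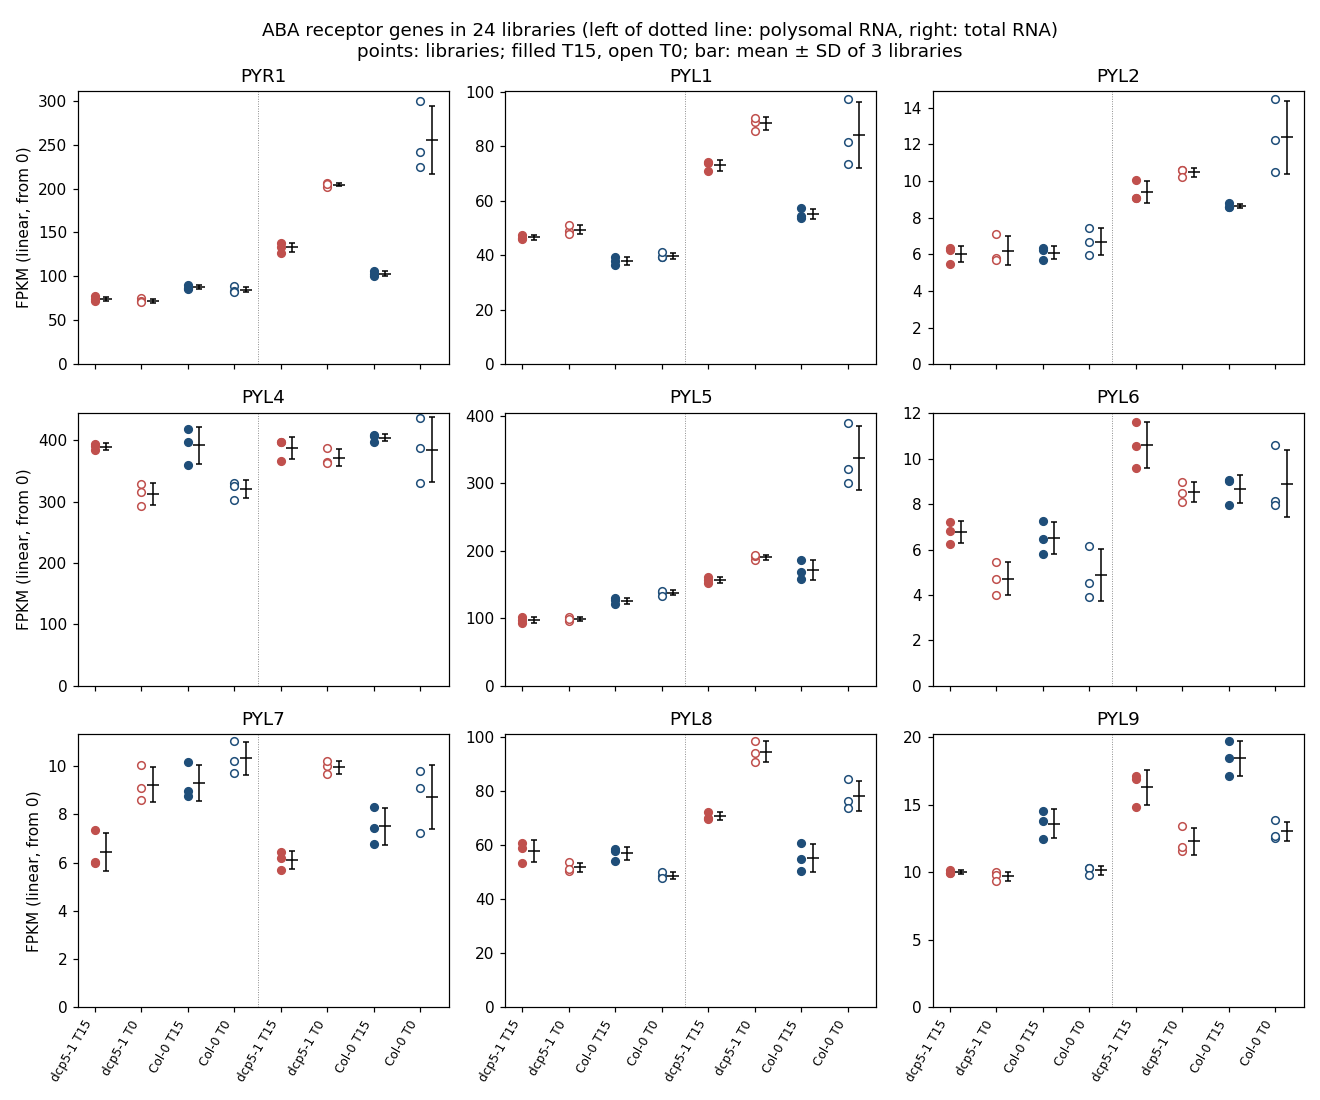
FPKM of the 9 receptor genes in each of 24 libraries (points, linear axis from 0), in polysomal RNA left of the dotted line and total RNA right of it, with dcp5-1 in red, Col-0 in blue, T15 filled and T0 open; bars show the mean and SD of 3 libraries. PYR1 lies between 70.4 and 90.4 FPKM in all polysomal libraries and between 100.2 and 299 FPKM in total RNA, while PYL4 stays between 293 and 436 FPKM.

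The levels of the receptor mRNAs in polysomal and in total RNA are compared first, as polysome association. This is the difference in log2(FPKM + 1) between the polysomal and the total libraries of a group. All tests are from limma over 20964 genes that reached 1 FPKM in at least 3 libraries, which all 9 receptors did in 24 of 24 libraries; a change was called at a Benjamini-Hochberg adjusted p below 0.05, and ± values on the log2 scale are standard errors. FPKM are shares of a library, so a low association means a smaller share of the polysomal than of the total library. Most receptor mRNAs were lower in polysomal RNA at T0: 8 of 9 were lower and none higher in dcp5-1, where 36.3% of all genes were lower and 34.9% higher, and 8 were lower and 1 higher in Col-0, where 36.0% were lower and 35.3% higher. The median association of the 9 was -0.74 in dcp5-1 and -0.76 in Col-0, beside -0.04 and -0.02 over all genes tested.

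PYR1, a dimeric receptor, had the lowest association at T0, though with the length and GC trend taken out PYL5 was lower in Col-0 (-1.32, against -1.13 for PYR1). In dcp5-1 at T0 it had 75.0, 72.0 and 70.4 FPKM in polysomal RNA, against 202, 206 and 205 FPKM in total RNA. In Col-0 at T0 it had 88.6, 83.9 and 82.6 FPKM in polysomal RNA, against 225, 299 and 241 FPKM in total RNA. Every polysomal library lay below every total library in both genotypes. The association was -1.48 ± 0.07 in dcp5-1 (adjusted p = 1.57e-14) and -1.56 ± 0.07 in Col-0 (adjusted p = 7.81e-15, n = 3 libraries a group in this and all later tests). PYL5, a monomeric receptor, was next in both genotypes, with associations of -0.94 ± 0.07 in dcp5-1 and -1.28 ± 0.07 in Col-0. PYL1 had -0.83 ± 0.06 in dcp5-1 and -1.05 ± 0.06 in Col-0, and PYL2, PYL6 and PYL8 lay between -0.86 and -0.67 in both. Without the second Col-0 total library the Col-0 values were -1.44 for PYR1, -1.17 for PYL5 and -0.94 for PYL1. With the length and GC trend taken out, PYL1 was -0.35 in dcp5-1 and -0.49 in Col-0, PYL2 was -0.44 in dcp5-1 and PYL8 was -0.39 in Col-0, all still called.

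PYL4, PYL7 and PYL9 had the associations of smallest size at T0 in the main fit. PYL4, the most abundant receptor mRNA, had an association of -0.25 ± 0.07 in dcp5-1 and -0.26 ± 0.07 in Col-0 at T0, and its libraries overlapped between the fractions in Col-0. The Col-0 value was -0.16 without the second total library. With the length and GC trend taken out PYL4 was -0.39 in dcp5-1 and -0.42 in Col-0, and no longer among the smallest. PYL1 then had -0.35 in dcp5-1 and PYL8 -0.39 in Col-0. PYL9 had -0.31 ± 0.07 in dcp5-1 and -0.33 ± 0.07 in Col-0, but with the length and GC trend taken out these became 0.20 and 0.24, so the direction for PYL9 at T0 depends on that choice. PYL7 had 9.70, 10.2 and 11.1 FPKM in polysomal RNA of Col-0 at T0, against 9.08, 9.79 and 7.23 FPKM in total RNA. It was the receptor called higher on polysomes there, by 0.23 ± 0.09 (adjusted p = 0.0336), although its libraries overlapped and the call was lost without the third total library (0.12, adjusted p = 0.267) or without the second or the third polysomal library (adjusted p up to 0.127). In dcp5-1 at T0 PYL7 had an association of -0.10 ± 0.09, not called. PYL7 is an uncertain case throughout: it overlaps AT4G01030 and AT4G03845 on the opposite strand, and whether the counting used strand is not given in the sources used here.

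After 15 min of NaCl fewer of the receptors were called low on polysomes, and the estimates were closer to 0 than at T0 for most of them, the exceptions being PYL9 in both genotypes and PYL7 in Col-0. In dcp5-1 at T15, 7 of 9 were lower and none higher, beside 32.8% and 33.6% of all genes. In Col-0 at T15, 6 were lower and 1, PYL7, was higher, beside 29.8% and 31.6% of all genes. When organelle-encoded genes were removed and the libraries rescaled, 8 were lower in each genotype at both times and none was higher at T15. Of 20889 genes, 9334 were then lower and 5062 higher in dcp5-1 at T15, and 9835 and 3930 in Col-0. At T0, 8239 were lower and 6627 higher in dcp5-1, and 7449 and 7102 in Col-0. PYL7 in Col-0 at T15 was no longer called (0.05). That scaling also moved the T15 median of all genes to -0.18 in dcp5-1 and -0.21 in Col-0. PYR1 had 74.4, 77.3 and 72.3 FPKM in polysomal RNA of dcp5-1 at T15, against 127, 138 and 134 FPKM in total RNA. In Col-0 at T15 PYR1 had 85.7, 86.9 and 90.4 FPKM in polysomal RNA, against 107, 100.2 and 103 FPKM in total RNA. The PYR1 fractions did not overlap in either genotype, and the associations were -0.82 ± 0.07 in dcp5-1 (adjusted p = 5.51e-10) and -0.23 ± 0.07 in Col-0 (adjusted p = 0.00544). With the length and GC trend taken out PYR1 was -0.53 in dcp5-1 and -0.07, not called, in Col-0, where it was -0.49 with organelle-encoded genes removed. PYL8 stood at -0.29 ± 0.06 in dcp5-1, which was -0.08 and not called with the trend taken out, and at 0.04 ± 0.06 in Col-0, which was called lower without organelle-encoded genes (-0.21) and higher with the trend taken out (0.17, adjusted p = 0.0177). PYL4, at 0.01 ± 0.07 in dcp5-1 and -0.05 ± 0.07 in Col-0, was called lower in both without organelle-encoded genes (-0.19 and -0.31) and with the trend taken out (-0.15 and -0.23). PYL9 stood at -0.64 ± 0.07 in dcp5-1 and -0.41 ± 0.07 in Col-0, with -0.28 and -0.22 once the trend was taken out, and PYL1 at -0.64 ± 0.06 and -0.53 ± 0.06, with -0.23 and -0.30. PYL6 in Col-0, at -0.37 ± 0.12, lost its call without the second T15 polysomal library (-0.30, adjusted p = 0.0655), and PYL7, at 0.28 ± 0.09, without the first total or the third polysomal library (adjusted p up to 0.0845).

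**Figure D2:**
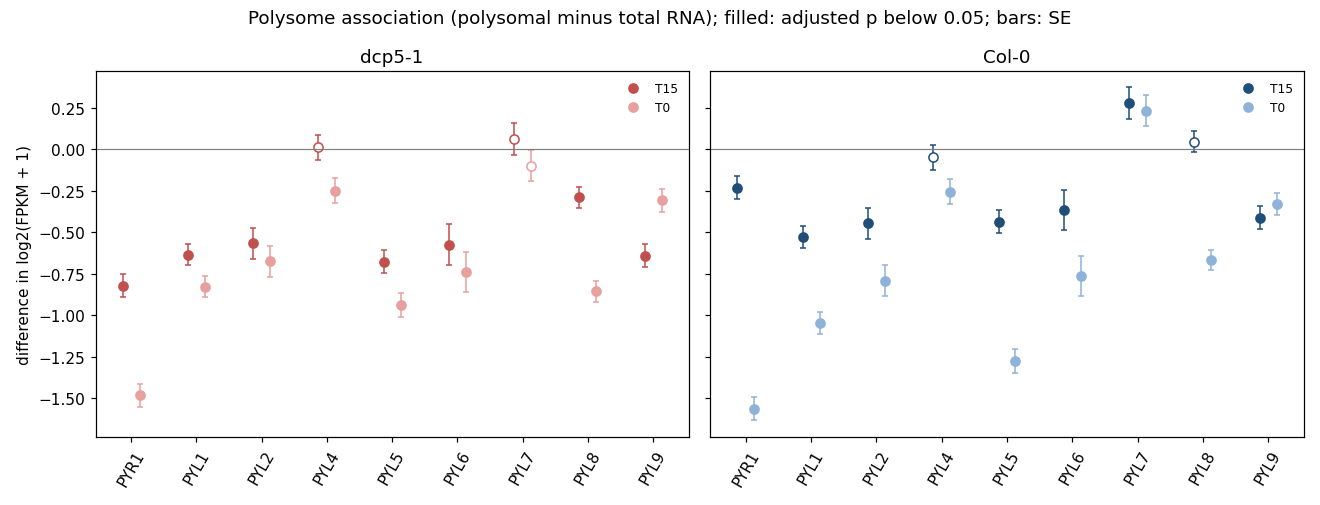
Polysome association (polysomal minus total RNA, difference in log2(FPKM + 1)) of each receptor gene in dcp5-1 (left panel) and Col-0 (right panel), at T15 (dark) and T0 (light); bars are SE and filled points have an adjusted p below 0.05. PYR1 lies at -0.82 at T15 and -1.48 at T0 in dcp5-1, and at -0.23 at T15 and -1.56 at T0 in Col-0.

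In total RNA, most of the abundant receptors were lower after 15 min of NaCl and PYL9 was higher. In dcp5-1, 5 of the 9 fell (PYR1, PYL1, PYL5, PYL7 and PYL8) and 1 rose (PYL9), where 26.8% of all genes fell and 29.0% rose. In Col-0, 5 fell (PYR1, PYL1, PYL2, PYL5 and PYL8) and PYL9 rose, where 32.4% of all genes fell and 33.2% rose. The median change of the 9 was -0.27 in dcp5-1 and -0.46 in Col-0, beside 0.01 over all genes in both. Without organelle-encoded genes, 5 fell and 2 rose in each genotype. Of 20889 genes, 5024 then fell and 6584 rose in dcp5-1, and 4458 fell and 10428 rose in Col-0. The median of all genes in Col-0 moved to 0.24, and relative to that median the receptors' median was -0.44 in place of -0.47.

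PYR1 fell furthest in Col-0. In dcp5-1 it had 127, 138 and 134 FPKM at T15, against 202, 206 and 205 FPKM at T0, a change of -0.62 ± 0.07 (adjusted p = 8.56e-08). In Col-0 it had 107, 100.2 and 103 FPKM at T15, against 225, 299 and 241 FPKM at T0, a change of -1.29 ± 0.07 (adjusted p = 3.69e-13). The T15 libraries lay below the T0 libraries in both genotypes. PYL5 had the next largest fall in Col-0. It had 152, 157 and 161 FPKM at T15 in dcp5-1, against 186, 192 and 193 FPKM at T0. In Col-0 PYL5 had 187, 168 and 159 FPKM at T15, against 300.1, 390 and 322 FPKM at T0. Again no T15 library reached a T0 library of its genotype, and the changes were -0.28 ± 0.07 in dcp5-1 (adjusted p = 0.00189) and -0.97 ± 0.07 in Col-0 (adjusted p = 7.45e-11).

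The other falls were those of PYL8, PYL1, PYL2 and PYL7. PYL8, a monomeric receptor best known from roots, changed by -0.41 ± 0.06 in dcp5-1 and -0.49 ± 0.06 in Col-0. PYL1 changed by -0.27 ± 0.06 in dcp5-1 and -0.59 ± 0.06 in Col-0; with the length and GC trend taken out these were -0.08, no longer called, and -0.27. Without organelle-encoded genes the Col-0 changes of PYL1, PYL2 and PYL8 were -0.32, -0.21 and -0.22, all called. PYL2 fell by 0.46 ± 0.09 in Col-0 (-0.25 with the trend taken out), while in dcp5-1 its change of -0.14 ± 0.09 did not pass the test. PYL7 had 6.21, 6.42 and 5.69 FPKM at T15 in dcp5-1, against 9.99, 9.66 and 10.2 FPKM at T0, which do not overlap (-0.63 ± 0.09, adjusted p = 7.54e-06). In Col-0 the PYL7 libraries overlapped (-0.18 ± 0.09, adjusted p = 0.0938), and the change was called without the third T0 or the third T15 library (-0.30 and -0.25).

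PYL9 was the receptor that rose. It had 17.2, 16.9 and 14.8 FPKM at T15 in dcp5-1, against 11.6, 13.5 and 11.9 FPKM at T0, a change of 0.38 ± 0.07 (adjusted p = 6.72e-05). In Col-0 it had 18.5, 19.7 and 17.2 FPKM at T15, against 12.6, 13.9 and 12.7 FPKM at T0, a change of 0.47 ± 0.07 (adjusted p = 3.21e-06). All T15 libraries were above all T0 libraries in both genotypes. PYL9 has the shortest transcript of the 9, and with the length and GC trend taken out its rise was larger, 0.63 in dcp5-1 and 0.88 in Col-0. PYL4 changed by 0.06 ± 0.07 in dcp5-1 and 0.08 ± 0.07 in Col-0 and PYL6 by 0.28 ± 0.12 and -0.03 ± 0.12, none of them called; the PYL6 value in dcp5-1 was called without the first T15 library (0.35), and without any of 5 libraries of other groups. PYL6 in dcp5-1 was also called without organelle-encoded genes (0.33) and with the trend taken out (0.30), and PYL4 in Col-0 without organelle-encoded genes (0.36). Without the second Col-0 T0 library the Col-0 changes were -1.17 (PYR1), -0.48 (PYL1), -0.35 (PYL2), -0.86 (PYL5), -0.44 (PYL8) and 0.51 (PYL9), all still called, and PYL4 was then called higher (0.18, adjusted p = 0.0272). In RNA of seedlings, fewer cells of a type and less RNA per cell cannot be told apart.

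On polysomes the calls differed: PYR1, PYL1 and PYL5 fell in total RNA of both genotypes but did not pass the test on polysomes, where PYL4 and PYL6 rose. PYL1 in dcp5-1 did pass it, as a fall, without organelle-encoded genes. A call in total RNA alone is not a difference between the fractions, which is tested directly below. In dcp5-1 that direct limma test was not passed by PYL1 (0.19, adjusted p = 0.134) or PYL5 (0.26, adjusted p = 0.0571). In dcp5-1, 2 of the 9 rose (PYL4 and PYL6) and 1 fell (PYL7), where 17.2% of all genes rose and 15.5% fell. Without organelle-encoded genes 2 rose and 2 fell there, where 2160 of 20889 genes rose and 4791 fell. In Col-0, 4 rose (PYL4, PYL6, PYL8 and PYL9) and none fell, where 15.6% of all genes rose and 17.1% fell. The median change of the 9 was 0.04 in each genotype, beside 0.00 over all genes.

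PYL4 rose on polysomes in both genotypes. It had 394, 383 and 390.4 FPKM at T15 in dcp5-1, against 328, 316 and 293 FPKM at T0, a change of 0.32 ± 0.07 (adjusted p = 0.00216). In Col-0 it had 359, 417 and 398 FPKM at T15, against 330.5, 303 and 326 FPKM at T0, a change of 0.29 ± 0.07 (adjusted p = 0.00462). No T15 library overlapped a T0 library. PYL6, of the same subfamily and low in level, rose by 0.45 ± 0.12 in dcp5-1 (6.27, 7.23 and 6.83 FPKM at T15, against 4.01, 5.45 and 4.69 FPKM at T0; adjusted p = 0.00682). Its rise of 0.37 ± 0.12 in Col-0 (adjusted p = 0.0227) rested on overlapping libraries and was lost without the first T0 library (0.26, adjusted p = 0.147), the second T0 library (0.34, adjusted p = 0.0764) or the first T15 library (0.30, adjusted p = 0.107), and in a fit of the compared groups alone (adjusted p = 0.0641). PYL5, of that subfamily as well, changed by -0.02 ± 0.07 in dcp5-1 and -0.13 ± 0.07 in Col-0, neither called. In Col-0 the PYL5 libraries of T15 nevertheless lay below those of T0.

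PYL8 and PYL9 were called in Col-0. PYL8 had 54.3, 58.8 and 58.1 FPKM at T15 in Col-0, against 48.6, 50.1 and 47.8 FPKM at T0 (0.22 ± 0.06, adjusted p = 0.00899). Its change in dcp5-1 was 0.15 ± 0.06 (adjusted p = 0.0637), called without the first T15 library (0.21, adjusted p = 0.0209) or any of 3 libraries of other groups, and with the length and GC trend taken out (adjusted p = 0.00764). PYL9 had 10.2, 9.96 and 9.99 FPKM at T15 in dcp5-1, against 10.0, 9.79 and 9.37 FPKM at T0, which overlap (0.04 ± 0.07). In Col-0 PYL9 had 14.6, 13.8 and 12.5 FPKM at T15, against 10.4, 10.3 and 9.78 FPKM at T0, which do not (0.39 ± 0.07, adjusted p = 0.000149). PYL7 fell in dcp5-1 by 0.46 ± 0.09 (5.98, 7.33 and 6.0 FPKM at T15, against 8.60, 10.0 and 9.07 FPKM at T0; adjusted p = 0.000662). PYR1 changed by 0.04 ± 0.07 in each genotype, PYL1 by -0.08 ± 0.06 in dcp5-1 and -0.07 ± 0.06 in Col-0, and PYL2 by -0.03 ± 0.09 and -0.12 ± 0.09, none of them called. The PYL1 libraries of T15 nevertheless lay below those of T0 in both genotypes, and without organelle-encoded genes PYL1 was called lower in dcp5-1 (-0.16, adjusted p = 0.00778).

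**Figure D3:**
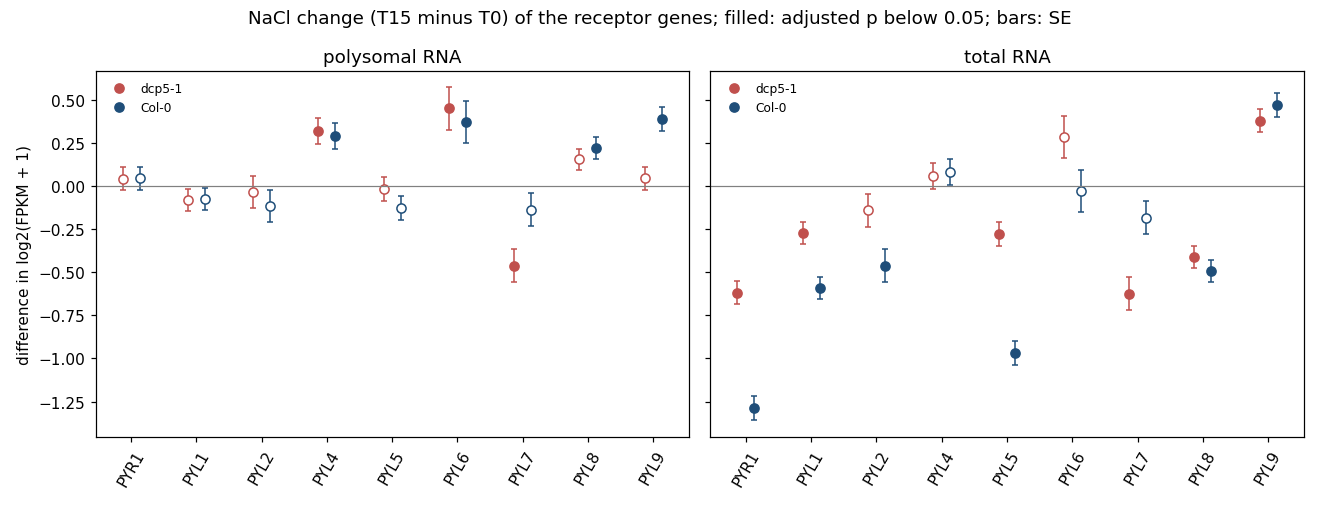
Change with NaCl (T15 minus T0, difference in log2(FPKM + 1)) of the 9 receptor genes in polysomal RNA (left panel) and total RNA (right panel), dcp5-1 in red and Col-0 in blue; bars are SE and filled points have an adjusted p below 0.05. PYR1 and PYL5 lie at -0.62 and -0.28 in dcp5-1 total RNA and at -1.29 and -0.97 in Col-0 total RNA, while their polysomal values lie between -0.13 and 0.04.

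The change of association with NaCl, tested directly as the polysomal change minus the total change, was upward for PYR1 and PYL8 in both genotypes. In dcp5-1, 2 of 9 rose (PYR1 and PYL8) and 1 fell (PYL9), where 12.3% of all genes rose and 14.0% fell. In Col-0, 5 rose (PYR1, PYL1, PYL2, PYL5 and PYL8) and none fell, where 22.8% rose and 21.5% fell. Without organelle-encoded genes 4 rose and 1 (PYL9) fell in Col-0, where 2881 of 20889 genes rose and 7889 fell. The median of all genes then moved to -0.20 in Col-0 and to -0.11 in dcp5-1. PYR1 rose by 0.66 ± 0.10 in dcp5-1 (adjusted p = 2.00e-05) and 1.33 ± 0.10 in Col-0 (adjusted p = 5.68e-10). PYL8 rose by 0.57 ± 0.09 in dcp5-1 and 0.71 ± 0.09 in Col-0, and PYL5 by 0.84 ± 0.10 in Col-0, with 0.26 ± 0.10 in dcp5-1 (adjusted p = 0.0571). PYL9 fell by 0.34 ± 0.10 in dcp5-1 (adjusted p = 0.0129) and stood at -0.08 ± 0.10 in Col-0, where it was called lower with the trend taken out (-0.45) and without organelle-encoded genes (-0.32). Which genotype had more rises depended on the setting. A fit of only the groups compared gave 5 in dcp5-1 and 4 in Col-0, as did leaving out the second Col-0 T0 total library. With the length and GC trend taken out there were 3 in each. Over all genes, the fit of only the groups compared called 3056 of 20301 higher in dcp5-1 and 4306 of 20215 in Col-0. With the trend taken out 2347 and 3391 of 20407 genes were called higher. PYL2 in Col-0 lost its call in all 3 of the settings without that library, without organelle-encoded genes and with the trend taken out (adjusted p up to 0.441), PYL1 in Col-0 lost its call with the trend taken out (0.19, adjusted p = 0.0854), and PYL5 in dcp5-1 gained one there (0.27, adjusted p = 0.0387). For PYR1 these rises go with falling total levels and polysomal levels that did not pass the test of change.

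Across all genes this change of association ran against transcript length, with a rank correlation of -0.423 in dcp5-1 and -0.591 in Col-0. With the length and GC trend taken out, PYR1 rose by 0.57 in dcp5-1 and 1.06 in Col-0, PYL8 by 0.59 and 0.55, and PYL5 by 0.27 and 0.82, all called. PYL1 in Col-0 (0.52 ± 0.09) was then 0.19 and no longer called (0.28 and called without organelle-encoded genes), and PYL9 was -0.48 in dcp5-1 and -0.45 in Col-0, both called. PYL2 in Col-0 (0.34 ± 0.13, adjusted p = 0.0393) lost its call without any of 9 of the 12 libraries compared (0.24 to 0.35, adjusted p up to 0.138), among them the second T0 total library (0.24), and was 0.12 without organelle-encoded genes and 0.16 with the trend taken out. Calls that appeared on leaving out a library were those of PYL4 in Col-0 (0.27 and 0.31, without the first T15 polysomal or the first T0 total library), PYL6 in Col-0 (0.47 to 0.55, without the third T0 library of either fraction or the second T15 polysomal library) and PYL5 in dcp5-1 (0.30, without the second T15 polysomal library). Leaving out the second Col-0 T0 total library, which is in neither dcp5-1 group, left the dcp5-1 values as they were, but PYL1, PYL4 and PYL5 were then called in dcp5-1 (adjusted p = 0.0229, 0.0245 and 0.00844).

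The dcp5-1 mutation was compared with Col-0 at each time and in each fraction. In total RNA at T15, 3 of 9 were higher in dcp5-1 (PYR1, PYL1 and PYL8) and 2 lower (PYL7 and PYL9), where 24% of all genes were higher and 26.1% lower. In total RNA at T0, 1 was higher (PYL8) and 2 lower (PYR1 and PYL5), where 19.5% were higher and 28.6% lower. On polysomes at T15, 1 was higher (PYL1) and 4 lower (PYR1, PYL5, PYL7 and PYL9), where 22.3% were higher and 22.4% lower. On polysomes at T0, 1 was higher (PYL1) and 2 lower (PYR1 and PYL5), where 21.9% were higher and 24% lower. Without organelle-encoded genes the T0 counts became 4 higher and 1 lower in total RNA and 3 higher and 1 lower on polysomes. Of 20889 genes, 7837 were then higher and 2975 lower in total RNA at T0, and 7428 and 2625 on polysomes. The T0 medians of all genes moved to 0.13 and 0.12. The T15 total RNA count became 3 higher and 3 lower, where 4849 genes were higher and 5530 lower.

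PYL5 was lower in dcp5-1 before salt. In total RNA at T0 it had 186, 192 and 193 FPKM in dcp5-1, against 300.1, 390 and 322 FPKM in Col-0 (-0.81 ± 0.07, adjusted p = 4.26e-09, and -0.70 without the second Col-0 library). On polysomes at T0 it had 102, 95.6 and 98.6 FPKM in dcp5-1, against 139.7, 140.2 and 133 FPKM in Col-0 (-0.48 ± 0.07, adjusted p = 9.64e-06). The genotypes did not overlap in either fraction at T0. At T15 PYL5 was lower on polysomes of dcp5-1 by 0.37 ± 0.07 (97.8, 93.1 and 102 FPKM, against 121, 127 and 130.2 FPKM in Col-0), while in total RNA the genotypes overlapped (-0.13 ± 0.07, adjusted p = 0.145; -0.14 and called without organelle-encoded genes).

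PYR1 differed between the genotypes in opposite directions at T15 and T0 in total RNA. At T15 it was higher in dcp5-1 by 0.36 ± 0.07 (adjusted p = 0.000141), with all dcp5-1 libraries above all Col-0 libraries. At T0 it was lower in dcp5-1 by 0.31 ± 0.07 (adjusted p = 0.000762), a value that was -0.19 (adjusted p = 0.00262) without the second Col-0 library and -0.09, not called, without organelle-encoded genes. On polysomes PYR1 was lower in dcp5-1 by 0.23 ± 0.07 at both times; the T0 value was -0.07, not called, without organelle-encoded genes. PYL1 was higher on polysomes of dcp5-1 by 0.29 ± 0.06 at T15 (47.6, 46.0 and 46.3 FPKM, against 36.4, 37.9 and 39.3 FPKM in Col-0) and by 0.30 ± 0.06 at T0 (49.1, 47.9 and 51.1 FPKM, against 39.3, 39.3 and 41.2 FPKM in Col-0; 0.45 without organelle-encoded genes). In total RNA PYL1 was higher in dcp5-1 by 0.40 ± 0.06 at T15 and not called at T0 (0.08 ± 0.06), where it was called without the second Col-0 library (0.19, adjusted p = 0.00351) and without organelle-encoded genes (0.29).

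PYL8 was higher in total RNA of dcp5-1, by 0.35 ± 0.06 at T15 and 0.27 ± 0.06 at T0 (0.49 without organelle-encoded genes), and not called on polysomes (0.02 ± 0.06 at T15 and 0.08 ± 0.06 at T0); without organelle-encoded genes it was called higher on polysomes too at T0 (0.24, adjusted p = 0.000867). PYL9 was lower on polysomes of dcp5-1 at T15 by 0.40 ± 0.07 (adjusted p = 6.31e-05), with no overlap of libraries. Its total RNA difference at T15, -0.17 ± 0.07 (adjusted p = 0.0445), overlapped and lost its call without any of 8 libraries, among them the third dcp5-1 library (-0.11, adjusted p = 0.245) and the first or second Col-0 library (-0.17 and -0.12), while with the length and GC trend taken out it was -0.31 and called. PYL7 was lower in dcp5-1 at T15 by 0.47 ± 0.09 on polysomes (adjusted p = 0.000333) and by 0.26 ± 0.09 in total RNA (adjusted p = 0.0286), the second of which was lost without the third dcp5-1 library or the second or the third Col-0 library (adjusted p up to 0.145). PYL2, PYL4 and PYL6 passed the test in none of these 4 comparisons; PYL4 differed by -0.06 at T15 and -0.04 at T0 in total RNA, though without organelle-encoded genes it was called higher in dcp5-1 at T0 (0.18 in total RNA, adjusted p = 0.00408, and 0.12 on polysomes, adjusted p = 0.0370). At T0, PYL2 was called lower in total RNA without the first Col-0 library (-0.32) or with the length and GC trend taken out (-0.24), and PYL7 higher without the second (0.27) or without organelle-encoded genes (0.38).

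**Figure D4:**
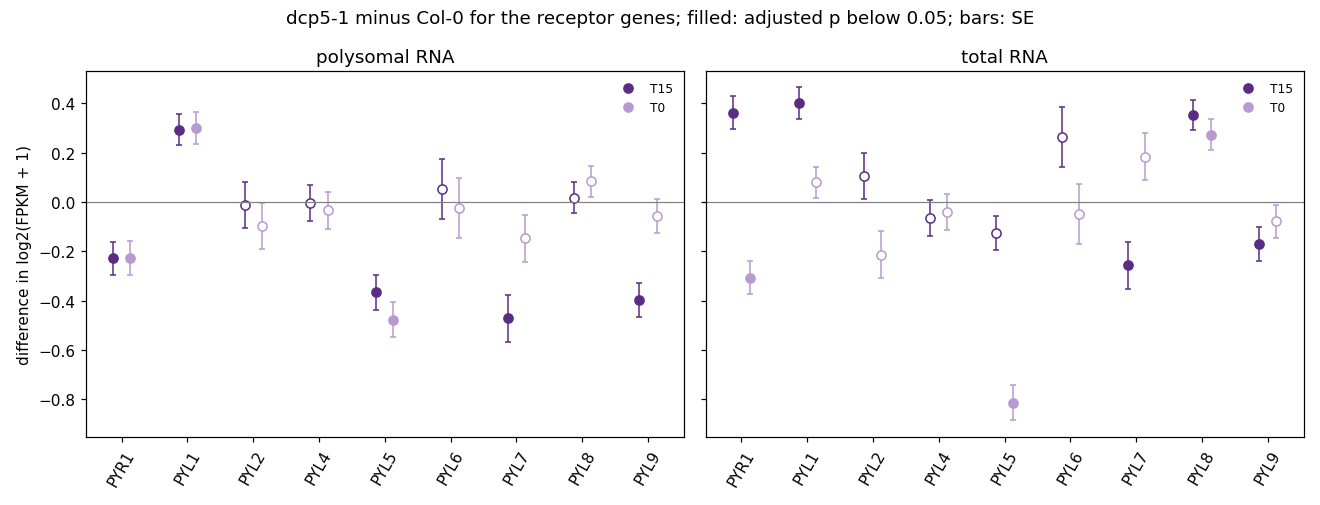
Difference between dcp5-1 and Col-0 (dcp5-1 minus Col-0, log2(FPKM + 1)) of the 9 receptor genes in polysomal RNA (left panel) and total RNA (right panel), at T15 (dark) and T0 (light); bars are SE and filled points have an adjusted p below 0.05. In total RNA PYR1 lies at 0.36 at T15 and -0.31 at T0, while PYL1 on polysomes lies at 0.29 at T15 and 0.30 at T0.

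Whether the change from T0 to T15 differed between the genotypes was tested as the NaCl change in dcp5-1 minus that in Col-0. In total RNA 4 of the 9 receptors differed, where 25.2% of all genes did: PYR1 by 0.67 ± 0.10 (adjusted p = 3.45e-05), PYL5 by 0.69 ± 0.10 (adjusted p = 3.77e-05) and PYL1 by 0.32 ± 0.09 (adjusted p = 0.0132) fell less in dcp5-1, and the PYL7 change lay lower in dcp5-1, by -0.44 ± 0.13 (adjusted p = 0.0193). Without the second Col-0 T0 library the values were 0.55 for PYR1, 0.58 for PYL5, 0.21 for PYL1 (adjusted p = 0.0249) and -0.52 for PYL7. The median of all genes moved to -0.17 without organelle-encoded genes, where 2 receptors differed upward and 3 downward. Of 20889 genes, 1775 then differed upward and 5696 downward. PYR1 and PYL5 stood at 0.44 and 0.46 in that setting, both called. The PYL1 difference was then 0.09 and not called; it was 0.18 and not called with the length and GC trend taken out. PYL7 lost its call without the third dcp5-1 T15 library or the third Col-0 library of either time (adjusted p up to 0.0604), and PYL2 (0.32 ± 0.13, adjusted p = 0.0827) gained one without the first Col-0 T0 library (0.43). For PYL4, PYL8 and PYL9 the differences were -0.02 ± 0.11, 0.08 ± 0.09 and -0.09 ± 0.10, of which those of PYL4 (-0.26, adjusted p = 0.00665) and PYL9 (-0.31, adjusted p = 0.0288) were called without organelle-encoded genes.

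On polysomes 1 of the 9 responses differed, that of PYL9 by -0.34 ± 0.10 (adjusted p = 0.0255), where 10.9% of all genes did. That call was lost without any of 6 of the 12 polysomal libraries (-0.34 to -0.30, adjusted p up to 0.0752) and with the length and GC trend taken out (-0.28). Without organelle-encoded genes PYL7 was called as well (-0.43, adjusted p = 0.0412). PYR1 and PYL5 had polysomal differences of -0.00 ± 0.10 and 0.11 ± 0.10. In polysome association at T15, 2 receptors were lower in dcp5-1 than in Col-0, PYR1 by 0.59 ± 0.10 (adjusted p = 0.000374) and PYL8 by 0.34 ± 0.09 (adjusted p = 0.0144), where 12.8% of all genes differed; PYL8 was not called with the length and GC trend taken out. At T0 PYL5 alone was called, higher in dcp5-1 by 0.34 ± 0.10 (adjusted p = 0.0329), where 10.9% of genes differed. The call was lost without any of 7 libraries, among them the second Col-0 total library (0.23, adjusted p = 0.0639). Without organelle-encoded genes 1 receptor was higher and 1, PYL8, lower (-0.25), where 1033 of 20889 genes were higher and 776 lower. PYL8 was -0.29 and called with the trend taken out. PYL1 (0.22 ± 0.09) gained a call without the first Col-0 total library (0.31). The change of association with NaCl was smaller in dcp5-1 for PYR1, by -0.67 ± 0.14 (adjusted p = 0.00614), and PYL5, by -0.58 ± 0.14 (adjusted p = 0.0184), where 6.25% of genes differed in either direction. Both stayed called without the second Col-0 T0 total library (-0.55 and -0.47), and PYL1 (-0.33 ± 0.13) was called without the first (-0.42). At T15 the second also mattered for PYL5, whose association difference of -0.24 ± 0.10 was called without it (adjusted p = 0.0273).

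The summed FPKM of the 9 receptors combine the values above, with PYL4, PYL5 and PYR1 as the largest parts. On polysomes the sum was 695.3 ± 3.7 FPKM at T15 and 614.7 ± 21.9 FPKM at T0 in dcp5-1 (SD, n = 3), and 735.3 ± 36.8 FPKM at T15 and 663.4 ± 14.1 FPKM at T0 in Col-0. In total RNA it was 862.4 ± 29.7 FPKM at T15 and 990.4 ± 20.5 FPKM at T0 in dcp5-1, and 832.4 ± 25.9 FPKM at T15 and 1182.3 ± 158.6 FPKM at T0 in Col-0. The last of these rested on 1045, 1356 and 1146 FPKM, highest in the second library. These sums are a description and were not tested. PYL4 made up 55.99 ± 0.65% of the polysomal sum at T15 and 50.8 ± 1.23% at T0 in dcp5-1, and 53.16 ± 1.54% at T15 and 48.18 ± 1.24% at T0 in Col-0. In total RNA the PYL4 share was 44.82 ± 0.54% at T15 and 37.49 ± 0.9% at T0 in dcp5-1, and 48.57 ± 1.25% at T15 and 32.51 ± 1.15% at T0 in Col-0. PYR1 took 15.41 ± 0.21% of the total RNA sum at T15 and 20.65 ± 0.23% at T0 in dcp5-1, and 12.39 ± 0.19% at T15 and 21.55 ± 0.51% at T0 in Col-0. Its share of the polysomal sum stayed within 10.74% to 12.82% over the 4 group means.

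Over the 8 group means of log2(FPKM + 1), which share libraries, depth and the common fraction difference, the receptors did not all follow 1 pattern. PYR1 correlated with PYL2 at 0.96, PYL5 at 0.92, PYL1 at 0.89 and PYL8 at 0.89, but with PYL9 at 0.34, PYL4 at 0.34 and PYL7 at 0.11. PYR1, PYL5 and PYL1 varied most, with SDs of group means of 0.67, 0.57 and 0.47, and PYL4 least, with 0.14. Of 15704 genes of sufficient spread, those most like PYR1 were AT2G01540, AT5G19570 and AT5G54145, at correlations of 0.995, 0.992 and 0.991. For PYL5 they were AT5G14110, CRF7, a cytokinin response factor, and LQY1, a chloroplast protein of photosystem repair, at 0.996, 0.996 and 0.995. For PYL1 they were AT1G62790, FKBP15-1 and BNS, at 0.998, 0.997 and 0.996. These correlations describe 8 points and carry no test.

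Downstream and upstream of the receptors, the genes of ABA supply, the phosphatases, the kinases and the ABF factors are counted in the 4 NaCl comparisons. Of 10 genes of ABA supply 8 could be tested. On polysomes 4 rose and 1 fell in dcp5-1, where 17.2% of all genes rose and 15.5% fell, and 2 rose and 2 fell in Col-0, where 15.6% rose and 17.1% fell. In total RNA 3 rose and 1 fell in dcp5-1, where 29.0% rose and 26.8% fell, and 4 rose and 3 fell in Col-0, where 33.2% rose and 32.4% fell. The same shares of all genes stand beside the counts of phosphatases, kinases and factors that follow. NCED3, which makes the rate-limiting cleavage of ABA synthesis, had 7.84, 8.85 and 8.51 FPKM at T15 on polysomes of dcp5-1, against 1.09, 1.08 and 1.29 FPKM at T0 (2.13 ± 0.11). On polysomes of Col-0 it had 8.16, 9.68 and 9.84 FPKM at T15, against 2.08, 1.36 and 1.84 FPKM at T0 (1.89 ± 0.11). No T15 library overlapped a T0 library for NCED3. In total RNA the largest rises were those of BG1, a glucosidase that releases ABA from its stored conjugate, in dcp5-1 (2.19 ± 0.05), and of ABA1, the zeaxanthin epoxidase, in Col-0 (1.31 ± 0.04). Of the ABA 8′-hydroxylases, which break the hormone down, the largest falls were those of CYP707A1 on polysomes (-0.58 ± 0.06 in dcp5-1 and -0.45 ± 0.06 in Col-0) and of CYP707A3 in total RNA (-0.21 ± 0.05 in dcp5-1 and -0.61 ± 0.05 in Col-0).

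The phosphatases that the receptors block moved in both directions. Of 9 genes 6 could be tested; on polysomes 1 rose and 2 fell in dcp5-1 and 1 rose and 3 fell in Col-0, and in total RNA 2 rose and 1 fell in dcp5-1 and 2 rose and 3 fell in Col-0. ABI1 rose in all 4 comparisons, by 0.86 ± 0.05 on polysomes of dcp5-1, 0.70 ± 0.05 on polysomes of Col-0, 1.09 ± 0.05 in total RNA of dcp5-1 and 1.00 ± 0.05 in total RNA of Col-0. HAI1 fell in all 4, with changes of -0.42 ± 0.16 on polysomes of dcp5-1, -1.06 ± 0.16 on polysomes of Col-0, -0.98 ± 0.16 in total RNA of dcp5-1 and -1.93 ± 0.16 in total RNA of Col-0. The first of these HAI1 values had an adjusted p of 0.0492 and was lost with no filter on low values (adjusted p = 0.0746), with median-of-ratios scaling (adjusted p = 0.0521) and without most single libraries.

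The 3 SnRK2 kinases moved little: SnRK2.6 fell by 0.17 ± 0.05 on polysomes of dcp5-1 (adjusted p = 0.0224), SnRK2.2 rose by 0.13 ± 0.05 on polysomes of Col-0 (adjusted p = 0.0473) and SnRK2.3 rose by 0.46 ± 0.12 in total RNA of dcp5-1 (adjusted p = 0.00187). The SnRK2.6 call was lost without the first or the third library of either time (adjusted p up to 0.0783), and the SnRK2.2 call without most single libraries (adjusted p up to 0.138). No kinase passed the test in total RNA of Col-0. Among the factors 4 of 5 could be tested, and ABF3 fell on polysomes, by 0.66 ± 0.09 in dcp5-1 and 0.57 ± 0.09 in Col-0, and in total RNA of dcp5-1 by 0.30 ± 0.09, which was not called without organelle-encoded genes. ABF1, at 0.461 to 1.85 FPKM over the libraries, rose by 0.57 ± 0.13 in total RNA of Col-0 (0.98 with a pseudocount of 0.1). The median changes in total RNA were 0.06 in dcp5-1 and 0.18 in Col-0 for the supply genes and -0.02 and -0.19 for the phosphatases, beside 0.01 over all genes. Between genotypes, none of the tested supply genes was higher in dcp5-1, and 6 of 8 were lower at T0 in each fraction, with a median of -0.34 on polysomes and -0.47 in total RNA, beside -0.01 and -0.05 over all genes. At T15 4 were lower on polysomes and 5 in total RNA. Of the 6 phosphatases, 4 were lower in dcp5-1 on polysomes at either time, and in total RNA 2 were lower at T15 and 5 at T0, with none higher. Over all genes 22.4% were lower and 22.3% higher on polysomes at T15, 24% and 21.9% on polysomes at T0, 26.1% and 24% in total RNA at T15, and 28.6% and 19.5% in total RNA at T0. Without organelle-encoded genes, 2975 genes were lower and 7837 higher in total RNA at T0, and 2625 and 7428 on polysomes at T0. The genotype counts of supply genes and phosphatases were not repeated under that scaling.

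**Figure D5:**
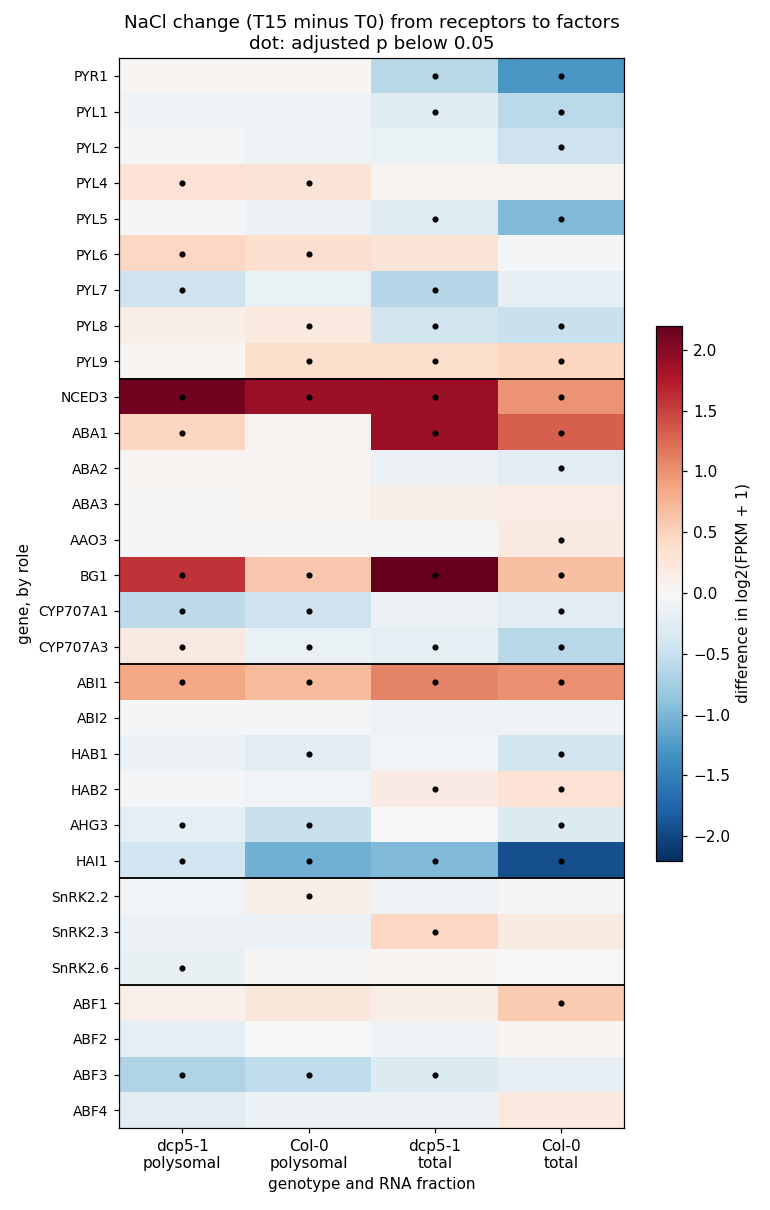
Change with NaCl (T15 minus T0, difference in log2(FPKM + 1), colour) of the 9 receptors and, below the lines, the tested genes of ABA supply, phosphatases, SnRK2 kinases and ABF factors, in polysomal and total RNA of dcp5-1 and Col-0; dots mark an adjusted p below 0.05. ABI1 rises and HAI1 falls in all 4 columns, and NCED3 rises by up to 2.13.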

How the data were processed

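Total and polysomal mRNA of Arabidopsis seedlings was sequenced in 24 libraries, 3 for each of 8 groups. Reads were aligned to TAIR10 with Bowtie, per the submitters' processing notes; its version, the fragment counter and any use of strand were not given in the sources used here. The values are FPKM, deposited by the authors without counts; the unit was read from the values, since with 256 nt taken off the transcript length 96.0% to 99.4% of low values per library lay within 0.1 of whole fragments. Columns were matched to groups by their names; their numbers are not tied to the replicate numbers of the labels, so libraries are called the first, the second and the third in column order.

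Tests used limma 3.58.1 in R 4.3.3 (trend and robust empirical Bayes) on log2(FPKM + 1), over 20964 genes (55% of the table) with at least 1 FPKM in at least 3 libraries, 8 groups in 1 fit with 16 residual degrees of freedom, and 19 comparisons. The pseudocount understates changes of low genes. Standard errors pool the spread over all groups. Their median over genes was 0.0873 where a group was compared with another, within a fraction or between fractions. It was 0.123 for the genotype difference of NaCl changes and for NaCl or genotype differences in association. For the genotype difference of the NaCl change of association it was 0.175. The fit was tested on simulated data. Positions, lengths and start regions came from TAIR10.1 (RefSeq), which matched 99.2% of the identifiers; Python 3.11.15, numpy 2.4.6, pandas 2.3.3 and matplotlib 3.10.9 were used. Proteins were not used here, and the start region of 1 member is not reported.

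The receptor genes, the pathway lists and the tests were chosen with earlier results of these data known. Named are all receptors, DCP5, per pathway list and NaCl comparison the called genes with the largest rise and fall, and the 3 genes most like each of the 3 most variable receptors; BG1, ABA1 and NCED3 enter by that rule. Alternatives were a pseudocount of 0.1, no filter, median-of-ratios scaling, removal of organelle-encoded genes with rescaling, and fits of only the groups compared. That rescaling gave libraries equal sums of FPKM times transcript length over the remaining genes of at least 300 nt. Further alternatives were a test against a fold of 1.5, a replicate block, and removal of a length and GC trend. The trend used genes of at least 300 nt and splines with 6 and 4 degrees of freedom. The block and the trend removal were also combined, and each library was left out in turn.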

Additional observations from a re-analysis of the deposited data

Results flagged for a closer look

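The results listed here are those where the NaCl change of a receptor gene, or of its polysome association, differed between dcp5-1 and Col-0 in a direct test of that difference (limma, log2 scale, adjusted p below 0.05). In total RNA the NaCl change in dcp5-1 minus that in Col-0 was 0.67 for PYR1, 0.32 for PYL1, 0.69 for PYL5 and -0.44 for PYL7. On polysomes it was -0.34 for PYL9. For polysome association it was -0.67 for PYR1 and -0.58 for PYL5. Both are the polysomal minus the total RNA difference of the same libraries, so they are not separate from the total RNA values. Values without the second Col-0 T0 total library, and those under other settings that moved a call, stand with the results above; their part in these differences was not tested. No other receptor gene passed these tests.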

How the results depend on the processing

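Of the 171 receptor values (9 genes in 19 comparisons), a pseudocount of 0.1 changed the call of none. Median-of-ratios scaling changed 2, no filter 2, a fit of only the groups compared 13, removal of organelle-encoded genes 22 and removal of the length and GC trend 19. Against a fold of 1.5, 2 of 9 receptors passed for NaCl in total RNA of Col-0, where 725 of 20964 genes rose and 2094 fell. For polysomal against total RNA 4 passed in dcp5-1 at T0 (2565 genes higher, 1689 lower) and 3 in Col-0 at T0 (2218 and 2298). In dcp5-1 at T15 1 passed (1829 and 991), and 1 for the NaCl change of association in Col-0 (781 and 140). In each of the other 14 comparisons 0 passed, where at most 1344 genes were higher and at most 795 lower. Without organelle-encoded genes 5 receptors differed between dcp5-1 and Col-0 in total RNA at T0, 2 in the polysomal response and 2 in association at T0. Of 20889 genes, 7837 were then higher and 2975 lower in total RNA at T0. In the polysomal response 723 were higher and 1751 lower, and in association at T0 1033 and 776. The direction turned for PYL4 between genotypes at T0 (0.176 in total RNA, 0.125 on polysomes). It also turned for PYL4 in association in dcp5-1 at T15 (-0.188) and for PYL8 in association in Col-0 at T15 (-0.209). With the length and GC trend removed 0 receptors differed in the polysomal response, 2 in association at T0 and 1 in association at T15. Of 20407 genes, 1265 were then higher and 914 lower in the polysomal response. In association 1209 were higher and 1027 lower at T0, and 610 and 654 at T15. The direction turned for PYL9 in association at T0 (0.195 in dcp5-1, 0.236 in Col-0) and for PYL4 in dcp5-1 at T15 (-0.152). Adding the replicate block to that fit gave 1 in the polysomal response, where 1213 genes were higher and 886 lower. It gave the counts 2 and 1 in association again, where 1173 and 557 genes were higher and 974 and 626 lower. The values 0.195, 0.236 and -0.152 also came out again. A fit of only the groups compared called 6 receptors for the NaCl change of association in dcp5-1 and 0 for the genotype difference in association at T0. Over all genes it called 3056 higher and 3172 lower of 20301 in the first, and 1037 and 364 of 20362 in the second. The cause of these changes was not tested.

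Leaving out 1 library at a time, the receptors called ranged from 3 to 5 of 9 between genotypes in total RNA at T0, 3 to 6 at T15, 0 to 1 for the polysomal response difference, 3 to 6 for the NaCl change of association in dcp5-1 and 0 to 2 for the genotype difference in association at T0. The other 14 counts stayed within 1.5 times their value. Counts over all genes are not given for these fits. With the replicate block 6 of 9 receptors were called for NaCl in total RNA of Col-0, as without it, and 7 in dcp5-1. Of 20964 genes, 6936 then rose and 6777 fell in Col-0, and 6016 and 5582 in dcp5-1. The block took no call from a receptor and added 3. Same-numbered libraries did not deviate together: 8 of 84 correlations exceeded 0.1, over a range of -0.169 to 0.155. Such correlations cannot tell whether same-numbered libraries came from the same lysate, so any pairing is unknown. Calls lost on leaving out a library were those of PYL2, PYL5, PYL6, PYL7 and PYL9, which rest on 1883 to 7270 fragments a library for PYL5 and on 79 to 330 for the other 4; the part of depth in these losses was not tested.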
